A study of Mus musculus with 6 samples.

Results

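The genes examined here serve the uptake of lipoproteins into liver cells or control the cholesterol sensor of the endoplasmic reticulum. They were Insig1, Insig2, Scap and Srebf2, which set the activity of the transcription factor SREBP-2, and Lrp1, Scarb1 and Mylip, which encode receptors of lipoproteins and a ligase that acts on such receptors. They were found as the non-control probes whose RefSeq accession belongs to 1 of these 7 genes, and 10 of the 56605 probes on the array did so. Of all probes, 32994 (58.3%) carried an accession with 1 gene symbol, which gave 22911 genes.

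Gene expression was measured in the liver of 6 male mice, 12 weeks old when the diets began, with 1 single-colour Agilent array per mouse. The 3 control mice ate 100% regular granulated food for 4 weeks, and the 3 soy mice ate 75% regular food with 25% soy bean for the same 4 weeks. The samples came from the right hepatic lobe, and the mouse strain is not given in the sources used here. Control mice 1 and 2 and soy mouse 1 were hybridised on slide 1, soy mouse 2 alone on slide 2, and control mouse 3 and soy mouse 3 on slide 3. The comparison asked how a soy-enriched diet changes liver gene expression. Soy is studied for its effect on blood cholesterol, which is why the sterol-sensing genes are of interest.

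Liver cells clear cholesterol-rich lipoproteins from the blood through surface receptors and make cholesterol themselves. When sterols are scarce in the endoplasmic reticulum, SCAP escorts SREBP-2 to the Golgi apparatus, where proteases free its active part, which then switches on genes of cholesterol synthesis and lipoprotein uptake. When sterols are plentiful, INSIG proteins hold SCAP and SREBP-2 back, and the nuclear receptor LXR induces MYLIP, a ubiquitin ligase that sends lipoprotein receptors to the lysosome. Much of this control acts on protein, by transport, cleavage and degradation, which an mRNA array does not measure.

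Promoter sequence from RefSeq (mouse GRCm38.p6, from 250 bases before to 50 bases after each transcription start) is shown first for the members whose window held a motif tied to SREBP or to the factors that bind beside it. The windows of 6 of the 7 genes were used, 9 windows in all, with none for Scarb1. The searched letters, read on both strands, are in capitals in the stretches below, each printed on the plus strand.
Insig1, chr5:28071299-28071328: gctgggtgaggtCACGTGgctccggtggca
Scap, chr9:110333304-110333333: cgccgccgggagCACGTGtggagggcggcg
Srebf2, chr15:82147096-82147125: atgacgcaccATCACCCCAtgagccgcttc

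The E-box letters CACGTG stood 101 bases before the Insig1 start. In Scap they lay 40 bases before 1 annotated start and 28 bases after the other, so both Scap windows held the same copy. Of 32851 windows of this length over all genes, 2349 (7.15%) held CACGTG. The core of the sterol regulatory element, TCACNCCAC, was in 0 of the 9 windows and in 408 (1.24%) of all windows. The fuller element, which has an A before that core, was in 0 of the 9 and in 77 (0.234%) of all. The LXR element, AGGTCA repeated in the same direction with 4 bases between the copies, was in 0 of the 9 and in 5 (0.0152%) of all. The letters ATCACCCCA of Srebf2, 163 bases before the start, were searched only after its window had been read, and 92 windows (0.280%) held them. A match is a description of the letters and not a binding site.

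All 10 member probes were well above background on all 6 arrays, and no spot on any array was saturated. Probe signals below are background-corrected, quantile-normalized intensities on the log2 scale, and a difference is the soy mean minus the control mean, so that 1 is a doubling. A gene with several probes is given first by its brightest one. A probe passed the test when limma's p-value, adjusted by Benjamini-Hochberg over all 56605 probes, was under 0.05 and the fold change was above 1.5 or under 0.66. Each array was a separate animal per the labels, and the p-values measure the spread between these 6 mice.

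In limma 0 of the 7 genes passed, against 198 of 56605 probes (0.350%) and 122 of 22911 genes (0.532%) on the array as a whole. Among genes well above background on all 6 arrays, the share that passed was 0.799%. At an unadjusted p under 0.05, a level whose count moved with the processing, there were 3 members, Insig1 and Srebf2 higher in soy and Scap lower. Of all genes, 14.2% reached that level, 7.21% higher and 7.02% lower, and of the genes well above background 20.1% did. The groups of 3 did not overlap in 2 members, Insig1 higher and Scap lower, where 20.5% of all genes (9.68% higher, 10.8% lower) and 25.6% of those well above background showed no overlap. With 7 genes, these counts carry no reading beyond the genes themselves. The differences ranged from -0.39 in Scap to 0.55 in Insig2, 3 of them above 0 and 4 under 0, with a median of -0.03 beside -0.01 over all genes.

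**Figure D1:**
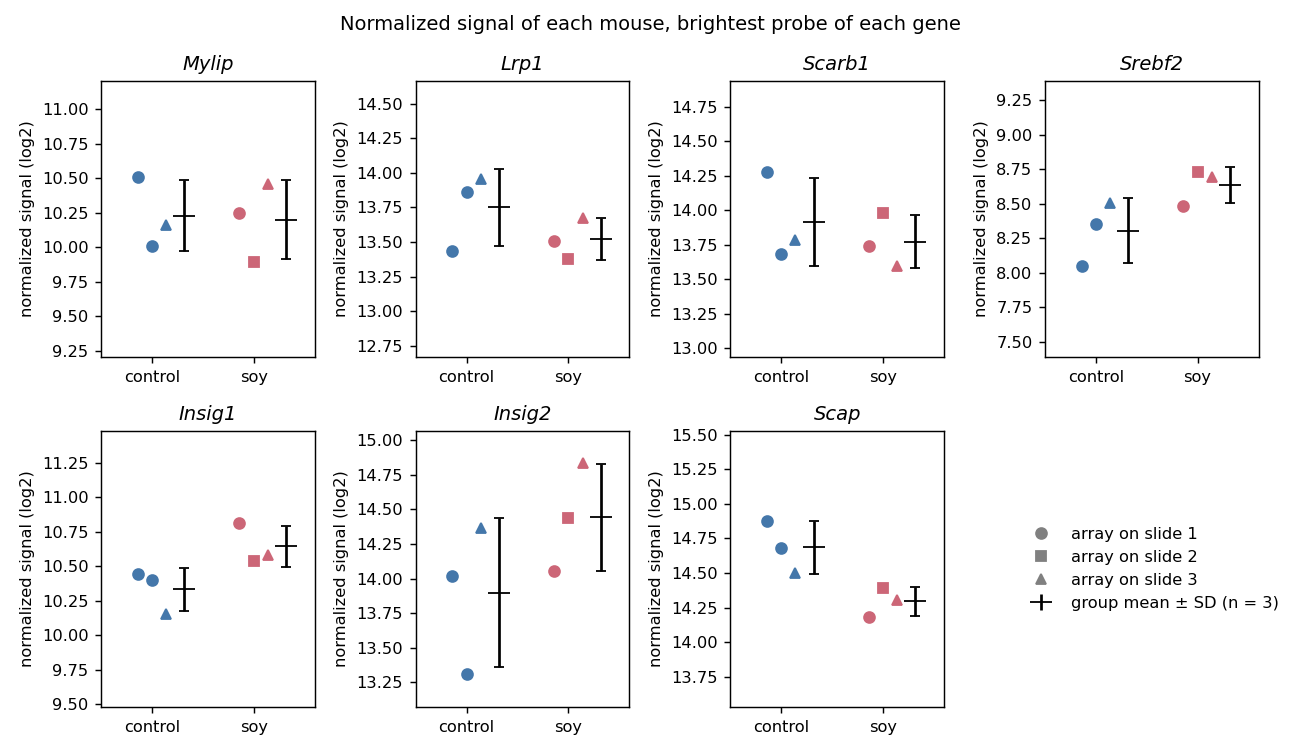
Normalized log2 signal of each mouse on the brightest probe of each of the 7 genes, by diet, with marker shapes for the slide and bars for the group mean ± SD (n = 3). Each panel has its own axis of the same span, and the groups are apart in Insig1, where soy is higher, and in Scap, where soy is lower.

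Insig1 encodes the INSIG protein whose own gene is an SREBP target, so that its mRNA is used as a readout of SREBP activity. Its signal was 10.44, 10.40 and 10.15 in the control mice and 10.81, 10.54 and 10.58 in the soy mice. Every soy mouse lay above every control mouse, with the smallest gap between soy mouse 2 and control mouse 1. The means were 10.33 ± 0.16 and 10.64 ± 0.15 (SD, n = 3 each), a difference of 0.31 (SE 0.13, 95% interval 0.02 to 0.60), or 1.24-fold. The unadjusted limma p was 0.0394 and the adjusted p 0.405, so Insig1 did not pass. Within slide 1 the soy mouse was higher by 0.39 and within slide 3 by 0.43, and with slide as a block the difference was 0.41 (SE 0.11, limma adjusted p = 0.329). The unadjusted limma p went above 0.05 without control mouse 2 (0.0566), control mouse 3 (0.133), soy mouse 1 (0.117) or soy mouse 3 (0.0545), with differences no lower than 0.22. The same held with offset 16 (0.0636) and with the processed signal scaled by the 75th percentile (0.0793).

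Insig2 encodes the INSIG protein that is not an SREBP target and whose liver transcript is known to be repressed by insulin. Its brightest probe read 14.02, 13.31 and 14.36 in the control mice and 14.06, 14.44 and 14.83 in the soy mice. Control mouse 2 was far under the other 5 mice, and soy mouse 1 lay within the control range, so the groups overlapped. The means were 13.90 ± 0.54 and 14.44 ± 0.39 (SD, n = 3 each). The difference of 0.55 (SE 0.29) was the largest among the 7 genes and also the least precise, with a 95% interval of -0.13 to 1.23, which spans a fold of 0.912 to 2.34. The limma adjusted p was 0.536. Without control mouse 3 the difference was 0.78, with an unadjusted limma p of 0.0314. Without control mouse 2 it was 0.25, the lowest value when any 1 mouse was left out, without soy mouse 3 it was 0.35, and with slide as a block it was 0.43 (SE 0.23).

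The 2 other Insig2 probes, both with accession NM_001271532, gave differences of 0.58 (SE 0.32, limma adjusted p = 0.553) and 0.73 (SE 0.39, limma adjusted p = 0.532). They ran from 0.21 to 0.78 and from 0.38 to 1.08 with 1 mouse left out, both lowest without control mouse 2. RefSeq lists 5 curated Insig2 transcripts, and the brightest probe carries another accession, NM_133748. Across the 6 arrays the 3 probes followed each other, with Pearson correlations of 0.974, 0.981 and 0.952, given as a description since all probes share the same RNA. Control mouse 2 was the lowest mouse on every 1 of the 3 probes, so its low Insig2 signal was seen at more than 1 probe.

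**Figure D2:**
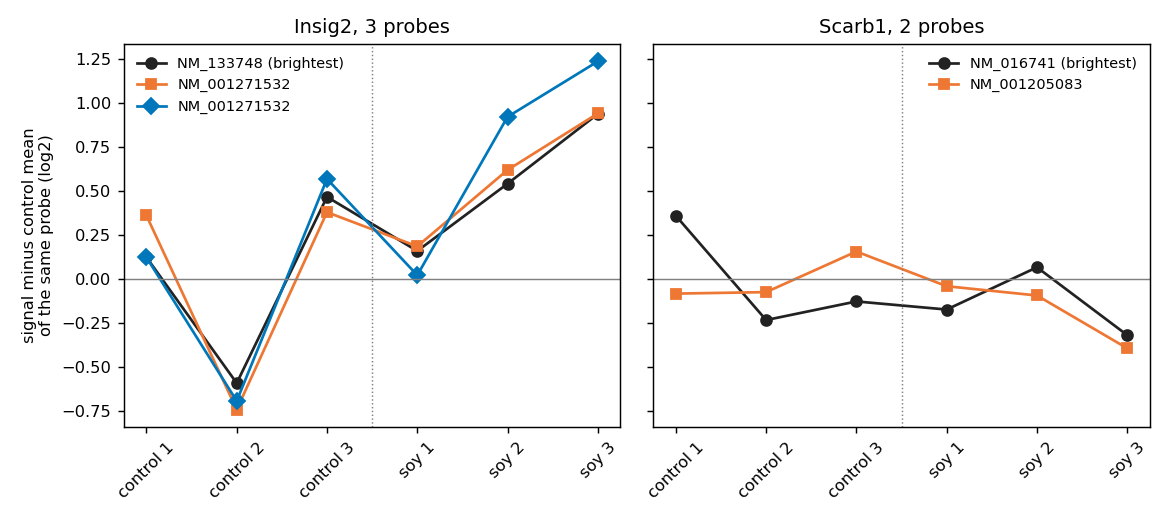
Log2 signal of each mouse minus the control mean of the same probe, for the 3 Insig2 probes and the 2 Scarb1 probes, with lines joining the values of 1 probe and a dotted line between the diets. The Insig2 probes move together with control mouse 2 lowest, and the Scarb1 probes do not follow each other.

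Scap encodes the escort protein that carries SREBP out of the endoplasmic reticulum. Its signal was 14.88, 14.68 and 14.50 in the control mice and 14.18, 14.39 and 14.30 in the soy mice. Every soy mouse lay under every control mouse, and the gap between control mouse 3 and soy mouse 2 was the narrowest. The means were 14.68 ± 0.19 and 14.29 ± 0.11 (SD, n = 3 each), a difference of -0.39 (SE 0.13, 95% interval -0.68 to -0.10) or a fold of 0.762. This was the smallest p among the members, at 0.0154 unadjusted, and the limma adjusted p was 0.292. The difference was -0.59 within slide 1 and -0.20 within slide 3, so the size differed between slides and the sign did not. With slide as a block the difference was -0.42 (SE 0.15, limma adjusted p = 0.408). Without control mouse 1 it was -0.29, with an unadjusted limma p of 0.0502.

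Srebf2 encodes SREBP-2 itself, and its gene is among the targets of its own protein. The signal was 8.05, 8.36 and 8.51 in the control mice and 8.49, 8.73 and 8.70 in the soy mice. The overlap was narrow, since soy mouse 1 lay just under control mouse 3 and the other soy mice lay above all controls. The means were 8.30 ± 0.23 and 8.64 ± 0.13 (SD, n = 3 each), and the difference was 0.33 (SE 0.14, 95% interval 0.0018 to 0.66), or 1.26-fold. The unadjusted limma p was 0.0490 and the adjusted p 0.433. The differences were 0.28 within slide 1 and 0.19 within slide 3, and 0.24 (SE 0.14) with slide as a block, where the unadjusted limma p went up to 0.133. Without control mouse 1 the difference was 0.21, with an unadjusted limma p of 0.154, and the unadjusted p also went above 0.05 without control mouse 2 (0.0767), soy mouse 2 (0.129) or soy mouse 3 (0.115). It was above 0.05 as well with no background correction (0.0627), offset 16 (0.0639), the processed signal scaled by the 75th percentile (0.0776) and eBayes with trend (0.0526).

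Lrp1 encodes a large endocytic receptor that clears lipoprotein remnants and many other ligands. Its signal was 13.43, 13.86 and 13.96 in the control mice and 13.51, 13.37 and 13.68 in the soy mice. Control mouse 1 lay among the soy mice, so the groups overlapped. The difference was -0.23 (SE 0.16, 95% interval -0.60 to 0.14, limma adjusted p = 0.637), from means of 13.75 ± 0.28 and 13.52 ± 0.15 (SD, n = 3 each). Within slide 1 it was -0.14 and within slide 3 -0.28, both under 0. It was -0.39 without control mouse 1 (limma adjusted p = 0.401) and -0.13 without control mouse 3.

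Mylip encodes the LXR-induced ligase that degrades lipoprotein receptors. The signal was 10.51, 10.01 and 10.16 in the control mice and 10.25, 9.89 and 10.46 in the soy mice, and the 2 groups covered nearly the same range. Its difference of -0.03 (SE 0.18, 95% interval -0.45 to 0.40) was the closest to 0 of the 7 genes, with a limma adjusted p of 0.971. The interval allows a fold between 0.731 and 1.32, so a change of 1.5-fold in either direction lay outside it. The sign was not stable, at -0.01 within slide 1 and 0.30 within slide 3.

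Scarb1 encodes SR-BI, the receptor through which liver cells take cholesteryl esters from HDL. Its brightest probe read 14.27, 13.68 and 13.79 in the control mice and 13.74, 13.98 and 13.60 in the soy mice. Control mouse 1 was the highest of all, and the other 5 mice were intermixed. The difference was -0.14 (SE 0.18, 95% interval -0.56 to 0.27, limma adjusted p = 0.809). Without control mouse 1 it was 0.038. A second probe for another transcript, NM_001205083, gave -0.18 (SE 0.13, limma adjusted p = 0.663), and its correlation with the brightest probe over the 6 arrays was 0.259. It ran from -0.24 to -0.07 with 1 mouse left out, and was 0.04 within slide 1 and -0.55 within slide 3.

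**Figure D3:**
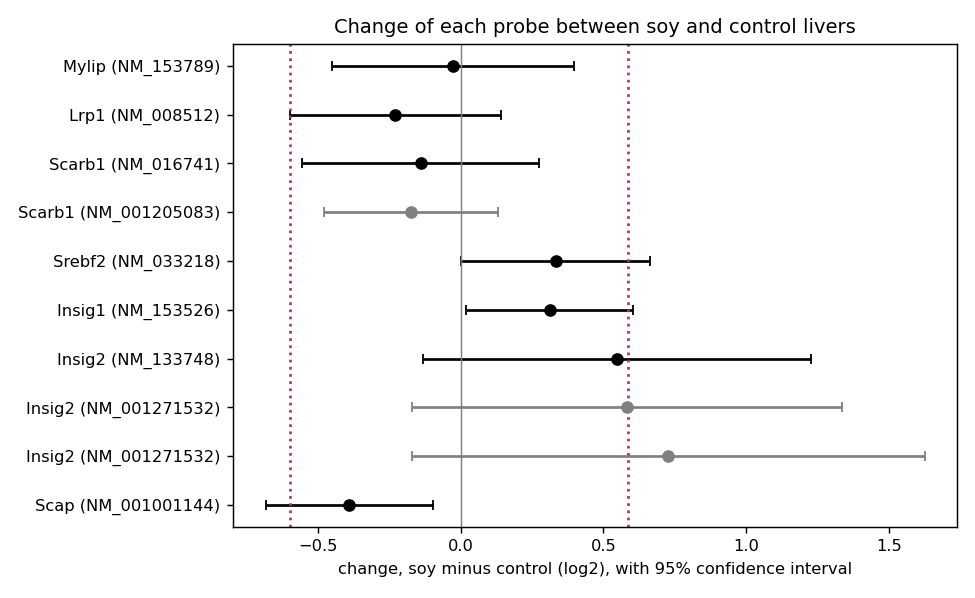
Difference between soy and control livers for each of the 10 probes (log2, points) with its 95% confidence interval (bars), black for the brightest probe of a gene and grey for the others, and dotted lines at the fold changes of 1.5 and 0.66. The intervals of Insig1, Scap and Srebf2 lie to 1 side of 0, the lower end of Srebf2 only just, and those of the 3 Insig2 probes are the widest.

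The intervals differed in what they leave possible at the fold changes of 1.5 and 0.66. Those of Mylip (0.731 to 1.32) and Scarb1 (0.680 to 1.21) lay between them, and that of Lrp1 reached down to the lower of the 2. The upper ends for Insig1 (1.52), Srebf2 (1.58) and Insig2 (2.34) went past 1.5, and the lower end for Scap (0.622) went past 0.66. A p-value that missed the threshold in these genes does not show that the diets gave the same level.

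The partners of SREBP processing were described by a list of 26 genes, of which 25 were on the array. Among them are genes that cleave SREBP, load the SCAP complex into vesicles, or mark INSIG proteins and their clients for degradation. The list also holds others, such as Srebf1 and Pgrmc1. In limma 0 of the 25 passed, and 3 had an unadjusted p under 0.05, 2 higher and 1 lower, with a median difference of 0.01, and the groups did not overlap in 7. Of genes well above background, as all 25 were, 20.1% had such a p and 25.6% did not overlap (14.2% and 20.5% of all genes). Srebf1, which encodes SREBP-1, the lipogenic member of the family, had the largest difference, 0.68 (SE 0.34, limma adjusted p = 0.512). Its values of 13.90, 14.50 and 13.38 in the control mice and 15.20, 14.09 and 14.51 in the soy mice overlapped, and soy mouse 1 was the highest. The difference was larger within each of the slides that held both diets than in the pooled fit, at 1.13 in slide 3, and smaller without soy mouse 1, at 0.38.

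Pgrmc1, a membrane haem-binding protein reported to bind SCAP and INSIG1, read 16.71, 16.39 and 16.60 in the control mice and 17.16, 16.97 and 17.00 in the soy mice. Its groups did not overlap, and the difference was 0.48 (SE 0.12, limma adjusted p = 0.174). Rnf139, a ubiquitin ligase of the endoplasmic reticulum, also stood apart between the diets, higher in all 3 soy mice by 0.44 in the mean (SE 0.11, limma adjusted p = 0.169). Erlin1, a lipid-raft protein that holds back SREBP when sterols are present, was lower in each of the 3 soy mice, with a difference of -0.33 (SE 0.11, limma adjusted p = 0.318). Its soy values of 12.90, 12.91 and 12.89 were close together, under control values of 13.43, 13.16 and 13.11.

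The SREBP-2 targets of the list, enzymes of cholesterol synthesis and the sterol carrier gene Stard4, gave 19 measured genes of 20. Again 0 passed in limma, with 4 (21.1%) at an unadjusted p under 0.05, 3 of them higher in soy, and a median difference of 0.09, and the groups did not overlap in 7. The shares over genes well above background, as all 19 were, were 20.1% and 25.6%, and over all genes 14.2% and 20.5%. Fdft1, squalene synthase, the first committed step towards sterols, was 13.57, 13.52 and 13.50 in the control mice and 13.86, 14.09 and 13.95 in the soy mice. The groups were well apart, the difference was 0.44 (SE 0.10, limma adjusted p = 0.146), and a second Fdft1 probe gave 0.45. Mvd, which makes isopentenyl diphosphate, differed by 0.40 (SE 0.14, 95% interval 0.06 to 0.73), with no overlap between the groups. Nsdhl, which takes part in removing methyl groups from sterol precursors, was lower without overlap, at -0.33 (SE 0.12, limma adjusted p = 0.331).

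Hmgcs1, which makes the precursor of mevalonate, had 1 soy mouse apart from the other soy mice. Its values were 14.93, 14.60 and 15.01 in the control mice and 14.35, 15.52 and 15.64 in the soy mice. Soy mouse 1 was the lowest of all 6 and soy mice 2 and 3 the highest, so the difference of 0.32 had an SE of 0.32 (limma adjusted p = 0.754) and was 0.09 to 0.74 with 1 mouse left out. The difference was -0.42 within slide 1 and 0.64 within slide 3. Over the whole target list the median was -0.19 within slide 1 and 0.10 within slide 3, so the slides disagreed in sign. Leaving out 1 mouse moved this median between -0.02 (without control mouse 3) and 0.18 (without soy mouse 1).

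Other lipoprotein receptors with their adaptors and endocytic partners were 23 genes, all on the array. Of these, 21 were well above background on all 6 arrays and 1, Lrp8, on none. In limma 0 passed and 3 (13.0%) had an unadjusted p under 0.05, 1 higher and 2 lower, with a median difference of 0.06. Lrp4, a receptor of the same family as Lrp1, differed by 0.53 (SE 0.25, limma adjusted p = 0.473), but its 4 probes ranged from -0.62 to 0.68. Lrp2, or megalin, a receptor best known from the kidney, differed by 0.51 (SE 0.22, limma adjusted p = 0.450), and its 3 probes ranged from 0.05 to 0.51. Lrp6, a co-receptor of Wnt signals, was lower without overlap at -0.43 (SE 0.15, limma adjusted p = 0.337) on its brightest probe and -0.04 on the other. Cd36, a fatty acid and lipoprotein scavenger receptor, differed by 0.46 (SE 0.27, limma adjusted p = 0.566), with overlap. With 1 mouse left out, the difference ran from 0.31 to 0.78 in Lrp4, from 0.32 to 0.75 in Lrp2 and from 0.31 to 0.73 in Cd36. The groups did not overlap in 4 of the 23 genes. Over all genes 14.2% had an unadjusted p under 0.05 and 20.5% did not overlap, and over those well above background 20.1% and 25.6%.

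The 15 genes that free cholesterol in the lysosome, move it to the endoplasmic reticulum or esterify it gave 0 that passed in limma and 1 (6.67%) at an unadjusted p under 0.05, beside 14.2% of all genes and 20.1% of those well above background. Their median difference was 0.08. It was -0.02 with a 75th-percentile shift of the median signals and 0.02 with the processed signal scaled by the 75th percentile. The groups overlapped in all 15, where 20.5% of all genes and 25.6% of those well above background did not. The gene with the low p was Lipa, the lysosomal lipase that splits cholesteryl esters, with a difference of 0.45 (SE 0.19, limma adjusted p = 0.413). Its soy values of 14.01, 13.57 and 14.32 spread more widely than its control values of 13.41, 13.56 and 13.57. Nceh1, a cholesteryl ester hydrolase, differed by 0.34 (SE 0.44), Soat2, the liver enzyme that esterifies cholesterol, by 0.27 (SE 0.18), and Gramd1a, a sterol carrier between membranes, by -0.23 (SE 0.18). With 1 mouse left out, the difference ran from 0.27 to 0.65 in Lipa, -0.13 to 0.87 in Nceh1, 0.05 to 0.38 in Soat2 and -0.37 to -0.03 in Gramd1a.

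LXR and its targets, with partners of MYLIP, were 13 genes, the list that also bears on how Mylip is driven. In limma 0 passed, 3 (23.1%) had an unadjusted p under 0.05, 1 higher and 2 lower, 9 of 13 differences were under 0, the median was -0.10 and the groups did not overlap in 5. Over all genes the shares were 14.2% at that p and 20.5% without overlap, and over those well above background, as all 13 were, 20.1% and 25.6%. Of all 22911 genes, 11723 had differences under 0. Abcg8, which with its partner Abcg5 exports sterols into bile, came closest to the threshold among the pathway genes. It read 13.35, 13.00 and 12.87 in the control mice and 12.45, 12.12 and 12.09 in the soy mice. All soy mice lay under all control mice, and the difference was -0.86 (SE 0.16, 95% interval -1.23 to -0.48), a fold of 0.553, with a limma adjusted p of 0.0907. The difference was -0.73 within slide 1 and -0.78 within slide 3.

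Abcg8 did pass in 2 alternative analyses, and its lowest limma adjusted p there was 0.0276. The first used Feature Extraction's processed signal scaled by the 75th percentile, and 13138 of 56605 probes passed there. The second left out probes not well above background, and 497 of 32376 probes passed. In the main analysis 198 of 56605 did. Abcg5, which works only as a pair with Abcg8, differed by -0.36 (SE 0.23, limma adjusted p = 0.606), with overlap. Usp2, a deubiquitinase that acts on MYLIP, had the largest difference of any pathway gene, -1.19 (SE 0.43, limma adjusted p = 0.347). Its values overlapped, at 12.68, 12.73 and 11.56 in the control mice and 11.98, 10.87 and 10.54 in the soy mice. Cyp7a1, the rate-limiting enzyme of bile acid synthesis, differed by 0.36 (SE 0.45, limma adjusted p = 0.805), and its control mice alone covered 11.16 to 13.13. With 1 mouse left out, the difference ran from -0.57 to -0.18 in Abcg5 and from -0.19 to 0.79 in Cyp7a1.

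Around Scarb1, the 9 genes of HDL and the adaptors of SR-BI gave 0 that passed in limma and 1 (11.1%) at an unadjusted p under 0.05, with 7 of 9 differences under 0, a median of -0.07 and overlap in all 9. The median ran from -0.15 (without control mouse 1) to -0.02 (without soy mouse 3) with 1 mouse left out. It was -0.06 within slide 1 and -0.25 within slide 3. All genes had shares of 14.2% at that p and 20.5% without overlap, and those well above background 20.1% and 25.6%. Differences under 0 were seen in 11723 of all 22911 genes. The gene at that p was Pdzk1ip1, a small membrane protein that binds the SR-BI adaptor PDZK1, at -0.98 (SE 0.33, limma adjusted p = 0.318). Its control mouse 3, at 10.68, lay under soy mouse 1, at 10.77, so the groups overlapped. Apom, an HDL apolipoprotein, differed by -0.28 (SE 0.14), Lipc, hepatic lipase, by -0.23 (SE 0.13), and Apoa2, a major HDL protein, by -0.11 (SE 0.12). With 1 mouse left out these ran from -0.39 to -0.16, -0.31 to -0.11 and -0.20 to -0.02.

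Over the 104 measured genes of the 6 lists, 15 (14.4%) had an unadjusted p under 0.05, 8 higher and 7 lower, beside 14.2% of all genes and 20.1% of those well above background. The groups did not overlap in 23 of them, 11 higher and 12 lower, beside 20.5% of all genes and 25.6% of those well above background. The median difference of the lists together was -0.01.

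**Figure D4:**
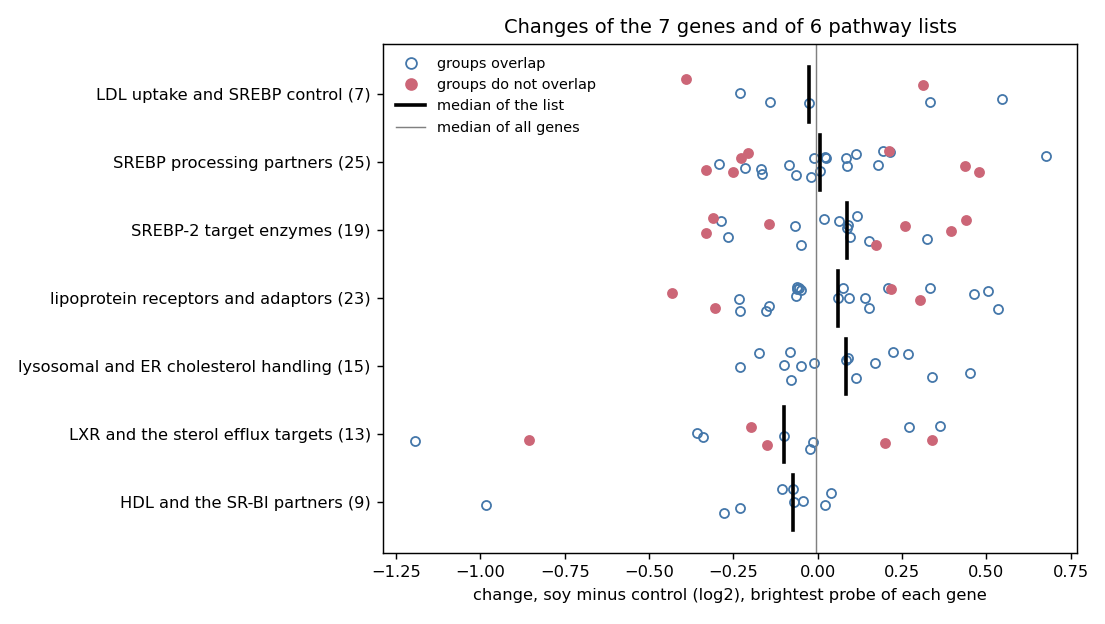
Difference between soy and control (log2, brightest probe of each gene) for the 7 genes and the 6 pathway lists, with the number of genes in brackets, filled points for genes whose groups do not overlap, and black bars at the list medians. The medians lie between -0.10 and 0.09, and the points farthest out are Usp2, Pdzk1ip1 and Abcg8 to the left and Srebf1 to the right.

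As a description of likeness over the 6 arrays, each member was set against the 101 pathway genes that were well above background on all arrays. Insig1 followed Lrp4 with a Pearson r of 0.933. Scap followed Erlin1 (0.953) and the enzyme gene Nsdhl (0.909), and Srebf2 followed Lrp2 (0.913) and Numb (0.883). Insig2 was most like Lamp1 (0.899) and Ccdc22 (0.848), and Lrp1 was most like Ccdc93 (0.917) and Gramd1c (0.908). The highest values were lower for Scarb1, with Idi1 (0.822) and Apoa2 (0.799), and for Mylip, with Cd36 (0.763). These correlations rest on 6 points that share array and diet and were picked from the highest of 101, and not every one of the highest is given.

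The tissue label was checked with marker genes. All 8 hepatocyte markers were well above background on all 6 arrays, with Alb the brightest, 0 of them passed in limma, and their median difference was -0.10. In whole liver, fewer cells of a type and less RNA per cell cannot be told apart. Of 8 Kupffer cell markers, 7 were higher in soy, with a median of 0.19 and Cd5l the brightest, and the 1 lower gene, Marco, had the largest difference of the list (-0.73, SE 0.45). Of 8 stellate cell markers, 7 were lower in soy, with a median of -0.16 and Dcn the brightest. Des was well above background on all control arrays and on no soy array. Over all 22911 genes, 11188 were higher in soy and 11723 lower. The stellate collagen genes Col1a1 (a fold of 0.501, limma adjusted p = 0.318) and Col3a1 (a fold of 0.522, limma adjusted p = 0.271) did not overlap between the groups, as 20.5% of all genes did not. Col1a1 ran from -1.30 to -0.61 and Col3a1 from -1.19 to -0.66 with 1 mouse left out.

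Markers of endothelial cells (8 genes, brightest Clec4g), cholangiocytes (6 genes, brightest Spp1) and blood cells (6 of 7 genes, brightest Alas2) had medians of 0.03, 0.13 and 0.35. The groups did not overlap in 2 cholangiocyte markers, 1 higher and 1 lower, in 1 endothelial and in 1 blood cell marker, both higher. The share without overlap was 20.5% over all genes and 25.6% over those well above background. Epcam failed the background mark on all 6 arrays, Krt7 and Cd79a on the 3 soy arrays, and 0 genes of the marker lists passed in limma. Summed Kupffer marker signals were 38578, 53761 and 62116 in the control mice and 48597, 58177 and 71032 in the soy mice, which overlapped. Summed stellate marker signals were 44469, 38134 and 41773 in the control mice and 36060, 36191 and 39923 in the soy mice, which overlapped too. Summed blood cell marker signals were 21774, 8772 and 21225 in the control mice and 19266, 19125 and 16004 in the soy mice. Control mouse 2 was far under the other mice there. The part of these cells in the differences of the 7 genes was not tested.

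Fewer spots were well above background on the soy arrays, with 31308, 31988 and 32498, than on the control arrays, with 37010, 36366 and 38163. The part of this gap in the members' differences was not tested, and all member probes were well above background on every array. The difference of every member was recomputed under 22 alternatives of background correction, scaling, blocking and left-out mice. Insig1, Insig2, Srebf2, Lrp1 and Scap did not change sign in any of them, Scarb1 did in 1 and Mylip in 4. The threshold, the moderation, the replicate block, outlier spots kept and the restriction to bright probes left the difference of these 7 probes as it was and so bear on its p-value alone. None of the 7 passed under any alternative with a test, which leaves out the values within a slide, and the lowest adjusted p of any member in limma was 0.0981, for Scap with the processed signal scaled by the 75th percentile.

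**Figure D5:**
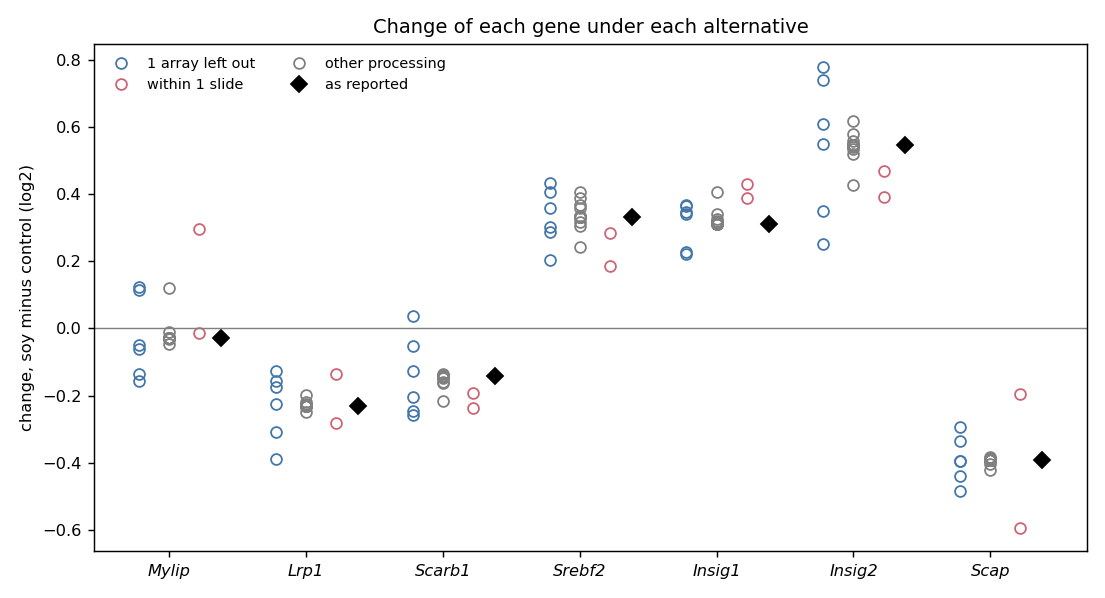
Difference between soy and control (log2) of each of the 7 genes as reported (diamonds) and under each alternative (circles), split into 1 array left out, values within 1 slide and other processing. Insig2 spreads from 0.25 to 0.78, Scap from -0.59 to -0.20, and Mylip and Scarb1 lie on both sides of 0.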

How the data were processed

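Liver RNA of 3 control and 3 soy mice was hybridised to 1-colour Agilent arrays. The authors deposited, per the file headers, spot intensities from Feature Extraction 11.5.1.1 (protocol GE1_1105_Oct12, probes annotated on mm9), not scaled between arrays. The authors also deposited log2 values of the same arrays, with array medians of 7.33 to 7.34 (log2) and a largest difference of 0.0705 from the values of the main processing. According to its methods, the study fed raw median signals to limma and adjusted p-values by Benjamini-Hochberg. The fold changes of 1.5 and 0.66 used here are those by which its results call genes up- or down-regulated.

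Median intensities were corrected with normexp (offset 50) against the local background and control spots were left out. Values were then quantile-normalized and put on the log2 scale. Outlier spots were left out after that, and the other spots were averaged per probe. The diets were compared over 56605 probes with lmFit and eBayes (limma 3.58.1, R 4.3.3), all 6 arrays in 1 fit without covariates. Python 3.11.15 with pandas 2.3.3 and matplotlib 3.10.9 joined and plotted the results. RefSeq accessions were named through the GRCm38.p6 gene table. Since the arrays use mm9, no gene coordinates are given, and promoter windows are those of GRCm38.p6.

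A gene is given by its brightest probe. The text names every member on every probe, the 4 genes of each list with the largest absolute difference among genes detected on every array of 1 diet or both, and the 2 list genes most correlated with each member, less any not reported here; any other gene was named after its values were seen. The members and lists were chosen with earlier results of these data known. Some genes of LDL uptake and cholesterol synthesis are not reported here. Of the lists, 2410131K14Rik, Acat2 and the marker Hbb-bs matched no symbol.

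The number of arrays limits the precision. An exact two-sided permutation test of 3 against 3 cannot go under p = 0.1. Data were simulated for all 56605 probes with independent normal noise and no slide effect. The 200 changed probes were drawn from those well above background on every array of 1 diet or both. There limma passed 56% of log2 changes of 1 (with 6 unchanged probes) and 95% of changes of 2 (with 12 unchanged probes). When no change was added, 0 probes passed. Both sizes were larger than the difference of any member probe, so changes of the members' size were not simulated.

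Alternatives covered uncorrected signals, a normexp offset of 16, Feature Extraction's processed signal scaled by the 75th percentile, a 75th-percentile shift of the median signals, cyclic loess, outlier spots kept, the authors' values, bright probes only, eBayes with trend, the threshold without fold change, the mean of a gene's probes, slide and replicate blocks, and leaving out each mouse.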

Additional observations from a re-analysis of the deposited data

How the results depend on the processing

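The count of members that passed was 0 under every alternative with a test (not within slides), and their sign changed only in Mylip and Scarb1. Mylip was 0.12 with slide as a block, 0.30 within slide 3, and between -0.16 and 0.13 when 1 mouse was left out. Scarb1 lay between -0.26 and 0.038 when 1 mouse was left out. Over all probes, the 198 that passed became 77 with offset 16, 13138 with the processed signal scaled by the 75th percentile (signal and scaling both changed), 299 with the 75th-percentile shift of the median signals, 497 with bright probes only and 25 with slide as a block. With 1 mouse left out the count ran from 25 (without soy mouse 2) to 203 (without control mouse 3), with 102 without control mouse 1, 71 without control mouse 2, 50 without soy mouse 1 and 27 without soy mouse 3. Of the probes that passed, 59.6% were higher in soy as reported, 90.8% with the scaled processed signal and 48.0% with slide as a block. The median of all probes was -0.01 as reported and 0.13 under both settings with 75th-percentile scaling, but over genes well above background the medians were 0.0016 and 0.01. Of the 104 measured genes of the pathway lists, 5 passed with the scaled processed signal (Abcg8, Gulp1, Lrp2, Lrp4 and Lrp8). In that setting 13138 of 56605 probes passed, and the brightest probe of Lrp8 was well above background on no array. With bright probes only, 1 gene of the lists passed (Abcg8), beside 497 of 32376 probes. The list medians were small, and some changed sign: -0.06 for the processing partners without soy mouse 1, -0.03 for the receptors without control mouse 1, -0.19 for the SREBP-2 targets within slide 1, -0.02 for lysosomal handling with the 75th-percentile shift and 0.02 for LXR with slide as a block. The cause was not tested.

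Replicate numbers were not treated as pairs. Same-numbered mice had deviations from their group means that correlated at 0.116, -0.06 and 0.106. Between mice of different numbers the correlations ran from -0.202 to 0.105. The mice numbered 1 shared a slide, as did those numbered 3, so replicate number and slide cannot be told apart there. With a replicate block 78 probes passed and no adjusted call among the members or lists changed, though Insig2 reached an unadjusted limma p of 0.0458. With 3 mice a group, differences of the size seen in Insig1, Srebf2 and Scap had 95% intervals that reached from near 0 to about a 1.5-fold change. Signals near background limit Lrp8 and several markers, while every member probe was well above background. The dimmest of them, Srebf2, still depended on the processing, at 0.31 with no background correction and 0.41 with the 75th-percentile shift.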
